A study of Mus musculus with 20 samples.

Results

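The transcript levels of 9 alpha and beta tubulin genes were followed through all 20 RNA-seq libraries of compartmentalised mouse motoneuron cultures. The members were chosen by gene symbol as the widely expressed alpha tubulins Tuba1a, Tuba1b and Tuba1c and the beta tubulins Tubb2a, Tubb2b, Tubb3, Tubb4a, Tubb4b and Tubb5, which are 9 of the 39174 genes in the files. Motoneurons were enriched from spinal cords of CD-1 mouse embryos and grown in microfluidic chambers that keep the growing axons apart from the cell bodies and dendrites. In 4 control axonal and 4 control somatodendritic libraries the cultures had received an empty lentiviral expression vector. The paper states that these control data had already appeared in an earlier publication, and that control and knockdown cultures were handled in parallel. In 6 axonal and 6 somatodendritic Tdp-43 knockdown libraries they had received a lentivirus with 1 shRNA against the Tdp-43 transcript, so that an effect of that single shRNA on other transcripts cannot be told apart from the knockdown. All cultures were therefore transduced, and the control vector carried no control shRNA. The labels do not say which libraries came from separate cultures, so that the p-values measure the spread between these libraries.

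Microtubules are polymers of dimers of 1 alpha and 1 beta tubulin, and they form the tracks for axonal transport and the scaffold of the growing axon. Each subunit is encoded by a family of genes, called isotypes, whose proteins are nearly identical except at their carboxy-terminal tails, where most modifying enzymes act. Tubb3 is the neuron-specific beta isotype, Tubb4a is mainly a brain isotype, and Tuba1a is the major alpha isotype of developing neurons. Tubb2a and Tubb2b are abundant in the nervous system, and Tubb5, Tuba1b, Tuba1c and Tubb4b are made by many cell types, with Tubb4b also used in cilia. Tubulin transcripts are further controlled by the level of free tubulin, because the start of the nascent chain is recognised on the ribosome when dimers are in excess and the transcript is then degraded.

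The start of the coding sequence encodes that recognition signal. It is shown because the 3 alpha members use identical bases for it, whereas the bases of the beta members differ from them and among themselves. The 30 coding bases that follow were read from the GENCODE M21 transcripts of GRCm38 on the transcript strand, with the first 4 codons in capitals.
Tuba1a: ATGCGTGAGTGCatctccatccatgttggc
Tuba1b: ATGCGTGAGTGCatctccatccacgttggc
Tuba1c: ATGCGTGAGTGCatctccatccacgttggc
Tubb2a: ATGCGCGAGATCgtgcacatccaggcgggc
Tubb2b: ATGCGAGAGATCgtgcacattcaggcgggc
Tubb3: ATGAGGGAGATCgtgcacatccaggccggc
Tubb4a: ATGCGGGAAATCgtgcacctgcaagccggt
Tubb4b: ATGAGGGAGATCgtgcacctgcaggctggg
Tubb5: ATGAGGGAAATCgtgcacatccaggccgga
The 3 alpha members share all 12 bases of these codons, whereas the beta members spell them in 5 ways, of which only Tubb3 and Tubb4b use the same one. The 5 spellings encode the same amino acids (methionine, arginine, glutamate, isoleucine), so the beta members differ here only in synonymous codons. In the alpha members the fourth amino acid is cysteine.

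The sequences also set how well each isotype can be measured. On GRCm38 the alpha members lie together at chr15:98949841-98953551 (Tuba1a), chr15:98931425-98934565 (Tuba1b) and chr15:99029891-99038105 (Tuba1c), and Tubb2a (chr13:34074301-34078008) lies beside Tubb2b (chr13:34127008-34130354). Tubb3 is at chr8:123411424-123422015, Tubb4a at chr17:57080066-57087782, Tubb5 at chr17:35833926-35838306 and Tubb4b at chr2:25222160-25224702, and each member's main transcript has 4 exons. The coding sequences of Tuba1a and Tuba1b were 98.3% identical, and those of Tubb2a and Tubb2b 96.5%. Between other pairs of beta members the identity was at most 84.5%. Of all stretches of 50 bases in the main transcript, 72.9% of Tuba1a, 73.8% of Tuba1b and 61.0% of Tuba1c also occur in a transcript of another gene. This share was 49.6% for Tubb2a, 39.3% for Tubb2b and 50.9% for Tubb4b, whose pseudogenes share most of it. It was 0% for Tubb3, 0.184% for Tubb4a and 0.115% for Tubb5. The values of these 3 isotypes thus hardly depend on how reads were divided between copies, while those of the alpha members, of Tubb2a against Tubb2b, and of Tubb4b are uncertain in that respect. Counts of members that include isotypes sharing such stretches are therefore not counts of separate measurements. The annotated spans of Gm49450 (at Tuba1a and Tuba1b) and Gm20388 (at Tubb3) also overlap these loci on the same strand.

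The forward primer that the study lists for Tubb2a shows how close the Tubb2 pair is.
Tubb2a forward: atgtcagccaccttcattgg
This primer, at coding base 1087, matches both Tubb2a and Tubb2b without a mismatch. The reverse primer of the pair matches Tubb2a alone among all annotated transcripts. The paper reports Tubb2a and Tuba1b among the transcripts that were lower in knockdown axons, as measured by RNA-seq and by qPCR. TDP-43 binds repeats of UG in RNA, so the letters TGTGTG were also searched on the transcript strand of the 3′ UTRs, with overlapping matches counted. Tuba1c held 2 matches and Tuba1a, Tubb2b and Tubb4b 1 each, whereas 5.55%, 11.0%, 37.4% and 8.82% of annotated 3′ UTRs within 20% of the same length hold at least 1. The letters were not in the annotated 3′ UTRs of Tuba1b, Tubb2a, Tubb3, Tubb4a and Tubb5, for which 9.40%, 10.9%, 17.2%, 32.3% and 49.0% of 3′ UTRs of like length hold at least 1.

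The files hold FPKM (fragments per kilobase of transcript, scaled to the mapped fragments of the library) with a 95% interval, and no counts. From the width of that interval the number of fragments behind each value was estimated, here called implied fragments, which covers counting error only. The relative depth over 680 genes was 0.530 to 0.674 in control axonal, 0.612 to 1 in control somatodendritic, 0.103 to 0.760 in knockdown axonal and 0.143 to 0.698 in knockdown somatodendritic libraries. Knockdown axonal replicate 5 was the shallowest. Tdp-43 (Tardbp) itself was at 14.7% ± 12.6 (SD, n = 6) of the control level in the somatodendritic compartment (p = 0.00952 in an exact permutation test, two-sided, which is the lowest value possible for 4 against 6 libraries). In the axonal compartment its mean was 52.9% ± 45.1 of the control (SD, n = 6), with p = 0.143 in the same exact test, and the library labelled knockdown axonal replicate 1 held 33.2 FPKM, above all 4 controls. After the scaling used for the tubulin tests the axonal level was 35.1% of the control (p = 0.0190, exact permutation test). Without knockdown axonal replicate 1 the level as deposited was 36.5% (p = 0.0317, exact permutation test). At most 14.7 implied fragments lie behind each axonal knockdown value of Tardbp.

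The cell type markers did not single out motoneurons. Chat, Mnx1 and Isl2 were listed at 0 in all 20 libraries, and the 9 motoneuron markers in the files summed to at most 28.3 FPKM in a library. The 10 pan-neuronal markers summed to 2138 to 2348 FPKM in control somatodendritic, 2692 to 3270 in knockdown somatodendritic, 631 to 893 in control axonal and 904 to 2526 in knockdown axonal libraries. Markers of other cells were present beside them. The fibroblast list summed to 41.5 to 80.5 FPKM in control somatodendritic and 135 to 539 in control axonal libraries, and to 38.9 to 96.9 and 89.8 to 696 FPKM in the knockdown libraries of these compartments. The dividing cell list summed to 85.2 to 105, 160 to 266, 19.8 to 86.3 and 55.6 to 418 FPKM in the same order, and the glia and progenitor list to 520 to 652, 611 to 952, 318 to 576 and 274 to 1312 FPKM. Markers of microglia, endothelium and blood summed to at most 33.1 FPKM in any library. In knockdown axonal replicates 3 and 4 the pan-neuronal sum was 2526 and 2251 FPKM, close to the somatodendritic libraries, against 904 to 995 FPKM in the other 4. These 2 axonal libraries stood apart, so each comparison that includes knockdown libraries was also made without knockdown replicates 3 and 4, an alternative chosen after seeing the data. The somatodendritic replicates 3 and 4 were left out with them only because they carry the same number. Their pan-neuronal sums of 2692 and 2847 FPKM did not stand apart from the 2819 to 3270 FPKM of the other 4, and the labels do not pair the compartments. In such bulk samples fewer cells of a type and less RNA per cell cannot be told apart.

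**Figure D1:**
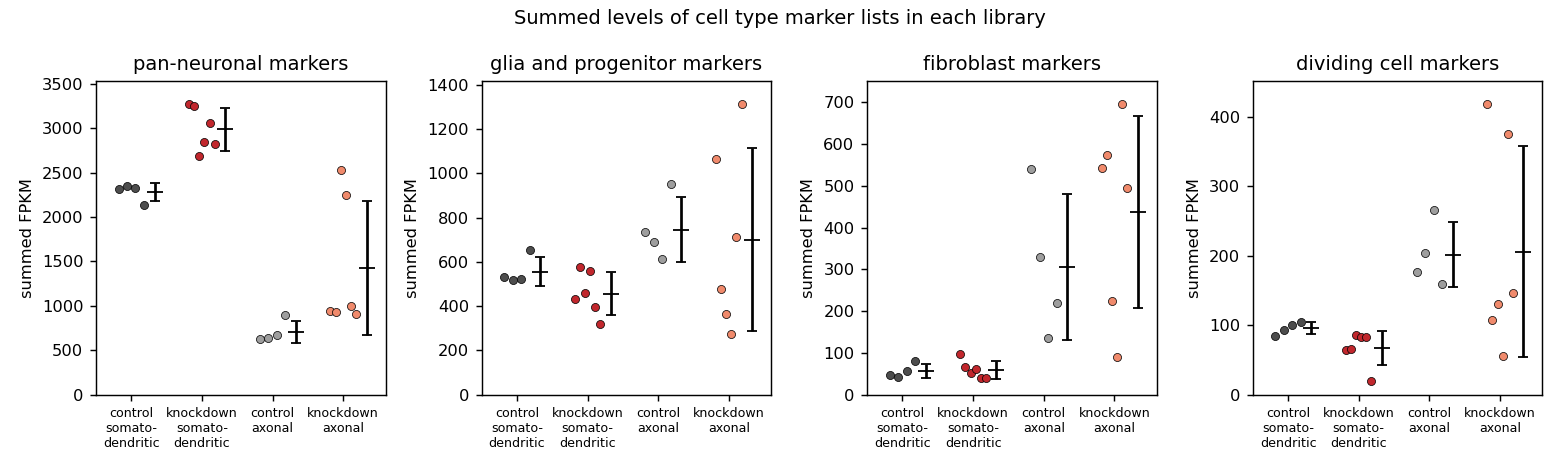
Summed FPKM of 4 marker lists in each library (points, ordered by replicate number; horizontal mark and bar, mean ± SD; 4 control and 6 knockdown libraries per compartment). Pan-neuronal sums are higher in the somatodendritic than in the control axonal libraries, knockdown axonal replicates 3 and 4 reach 2526 and 2251 FPKM, and the fibroblast and dividing cell sums are higher in control axonal than in control somatodendritic libraries.

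Tubulin transcripts were among the abundant transcripts of the cell bodies, and 1 alpha gene dominated. In control somatodendritic libraries the 9 members together reached 4758 ± 140 FPKM (SD, n = 4). Tuba1a was the highest, at 1422, 1463, 1490 and 1537 FPKM, followed by Tubb5 at 953 ± 36.7 FPKM (SD, n = 4) and Tubb3 at 698 ± 47.2 FPKM. Each of these 3 lay above the next without overlap. Tubb2b at 509 ± 44.2 FPKM and Tubb2a at 444 ± 41.8 FPKM overlapped in range, although Tubb2b was the higher in 4 of 4 libraries. Tuba1b at 356 ± 19.2 FPKM and Tuba1c at 201 ± 4.11 FPKM followed without overlap. Tubb4a at 67.7 ± 6.02 FPKM and Tubb4b at 52.7 ± 9.22 FPKM were the lowest, with overlapping ranges. Summed over each family, alpha FPKM was 0.748 ± 0.0330 (SD, n = 4) of beta FPKM. The implied fragments behind these control values ranged from 33.2 for Tubb4b to 973 for Tubb3.

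The order of the isotypes was different in control axons. Tuba1a (662 ± 74.7 FPKM, SD, n = 4) and Tubb5 (591 ± 136 FPKM) were again the highest, but overlapped in range, with Tuba1a the higher in 3 of 4 libraries. Tubb2a at 284 ± 101 FPKM, Tubb2b at 256 ± 49.9 FPKM, Tuba1b at 244 ± 23.0 FPKM and Tubb3 at 204 ± 37.1 FPKM followed, and each overlapped in range with the one above it. The Tubb2a mean includes replicate 4 at 433 FPKM, against 215 to 247 FPKM in the other libraries. Tubb2a was above Tubb2b in 2 of 4 libraries. Tubb3 thus moved from the third to the sixth place of 9. Tuba1c (133 ± 12.8 FPKM), Tubb4b (67.8 ± 22.3 FPKM) and Tubb4a (14.3 ± 5.62 FPKM) were lower without overlap, so that Tubb4b exceeded Tubb4a in 4 of 4 axonal libraries whereas Tubb4a exceeded Tubb4b in 4 of 4 somatodendritic ones. The alpha to beta ratio was 0.740 ± 0.102 (SD, n = 4).

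**Figure D2:**
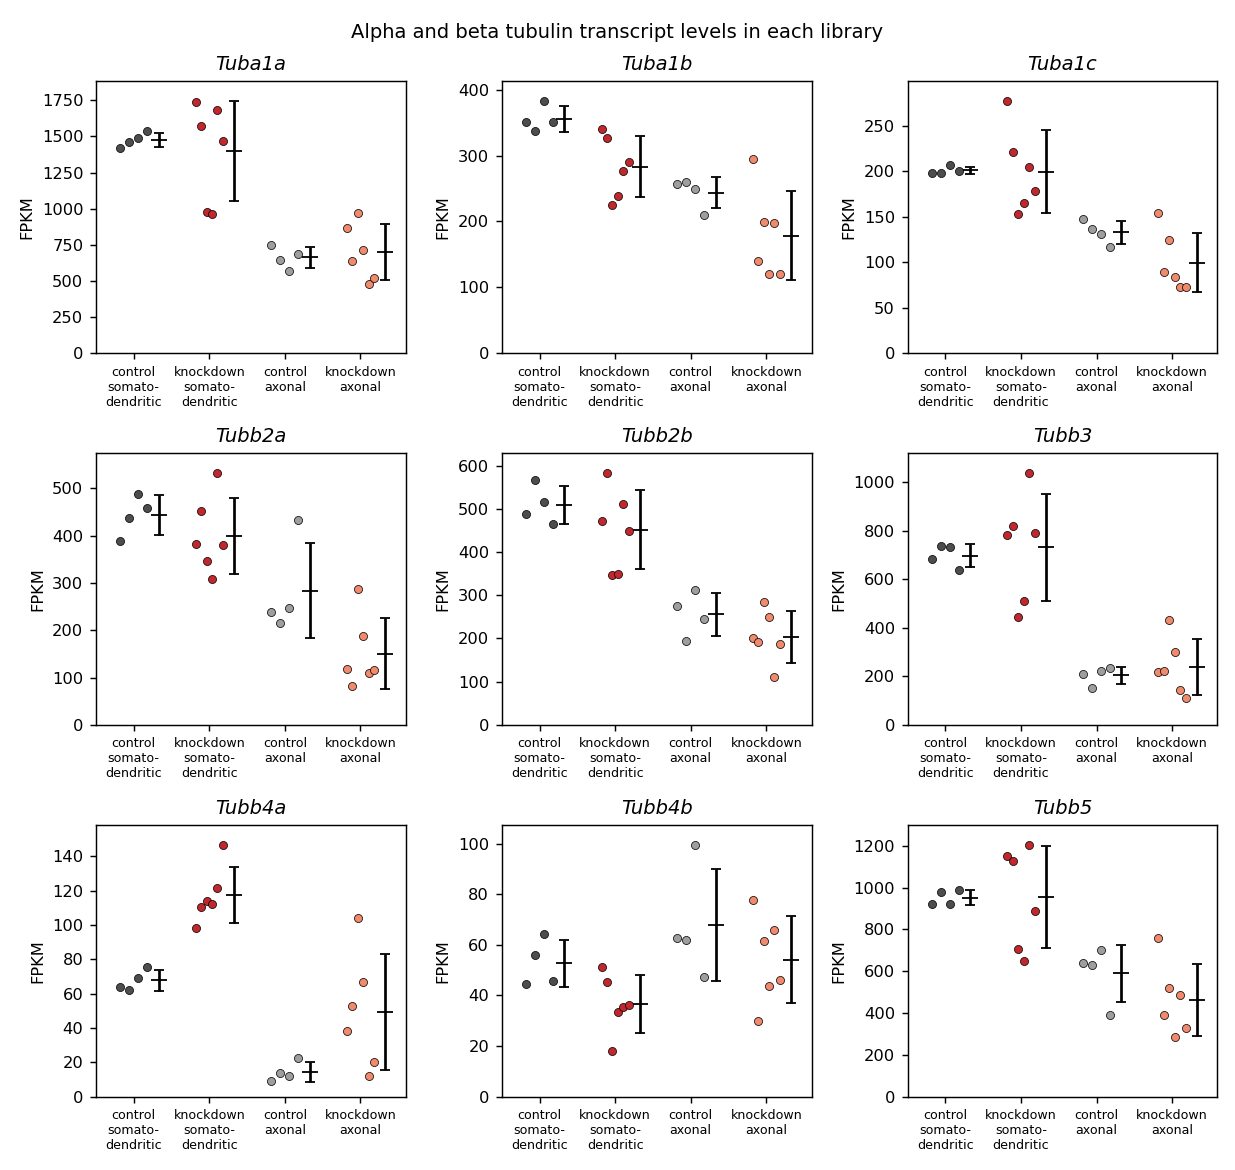
FPKM as deposited of the 9 tubulin genes in each library (points, ordered by replicate number; horizontal mark and bar, mean ± SD; 4 control and 6 knockdown libraries per compartment; each panel has its own axis from 0). Tubb4a is higher in all 6 knockdown somatodendritic libraries than in any control, and on this scale, on which the general level of genes is also lower in axons, 7 of the 9 genes (all but Tubb2a and Tubb4b) are lower in all 4 control axonal than in any control somatodendritic library.

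In control motoneurons Tubb3, Tubb4a and Tuba1a transcripts were lower in the axonal than in the somatodendritic compartment, relative to all genes. After scaling by the median of ratios, log2(FPKM + 1) was compared with limma over 13760 genes. The 3 called members are 3 of 9, all lower, whereas 2.97% of all genes tested were called lower and 6.90% were called in either direction. Without an adjustment of p, 4 members were lower and 1 higher, beside 11.8% and 11.1% of all genes. The median difference of the 9 members was -0.19, against -0.06 over all genes. Scaling matters in this comparison, because the median difference over all genes was -0.48 in FPKM as deposited, a shift of -0.42, and 7 members were then called lower.

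Tubb3, the neuronal isotype, was at 210, 150, 221 and 234 FPKM in the control axonal libraries and at 684, 736, 734 and 637 FPKM in the control somatodendritic ones. The groups did not overlap, as deposited or after scaling, and 8.54% of all genes lay lower without overlap after scaling. The scaled difference was -1.26 (SE 0.193) on the log2 scale, with a limma adjusted p of 0.00482. Tubb4a, the brain isotype, was at 9.31, 13.6, 11.98 and 22.3 FPKM in axons against 64.2, 62.1, 69.1 and 75.6 FPKM, again without overlap. Its difference was -1.72 (SE 0.271; limma adjusted p = 0.00518), although only 9 to 18.9 implied fragments lie behind each axonal value. For Tubb3 and Tubb4a the call held under all 15 alternatives. Tuba1a was at 748, 642, 571 and 687 FPKM in axons, below every somatodendritic library, with a difference of -0.64 (SE 0.148; limma adjusted p = 0.0290). That call was lost in 5 of the 8 fits that left out a library (control axonal replicate 2 and each somatodendritic replicate, limma adjusted p = 0.0596 to 0.102), with differences of -0.70 to -0.59 over all 8.

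The other isotypes did not pass the test in controls. Tubb4b was the only member with a higher value in axons, at 62.6, 61.8, 99.6 and 47.4 FPKM against 44.7, 56.0, 64.2 and 45.8 FPKM. The groups overlapped as deposited, and not after scaling (7.65% of all genes lay higher in this way), with a difference of 0.84 (SE 0.269; limma adjusted p = 0.0872). Without control axonal replicate 4 the difference was 0.99 and was called (limma adjusted p = 0.0363). For Tubb2b the difference was -0.48 (SE 0.200; limma adjusted p = 0.182). Tuba1b (-0.02, 95% interval -0.37 to 0.33), Tuba1c (-0.07, -0.43 to 0.29), Tubb2a (-0.17, -0.67 to 0.33) and Tubb5 (-0.19, -0.64 to 0.25) were not shown to differ from the general level of transcripts. Without control axonal replicate 4 the difference was -0.40 for Tubb2a (limma adjusted p = 0.112) and -0.01 for Tubb5 (limma adjusted p = 0.961). The 10 pan-neuronal markers moved in the same direction as Tubb3 and Tubb4a: 8 were called lower in axons, beside 2.97% of all genes. All 10 had a difference below 0 (beside 53.0% of all genes), with a median of -1.29. The 10 dividing cell markers all had a difference above 0, with a median of 1.36, and 5 were called higher, beside 3.93% of all genes. Of the 13 glia and progenitor markers tested, with a median of -0.53, Nes (3.42, limma adjusted p = 0.000951) and Vim (2.13, limma adjusted p = 0.000951) were called higher and Olig1 (-2.01, limma adjusted p = 0.0164) lower. Of the 5 fibroblast markers tested Fn1 (3.68, limma adjusted p = 0.00201) and Col1a1 (3.51, limma adjusted p = 0.00442) were called higher and Thy1 (-1.58, limma adjusted p = 0.0263), which neurons also express, lower. Their part in the tubulin values was not tested.

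**Figure D3:**
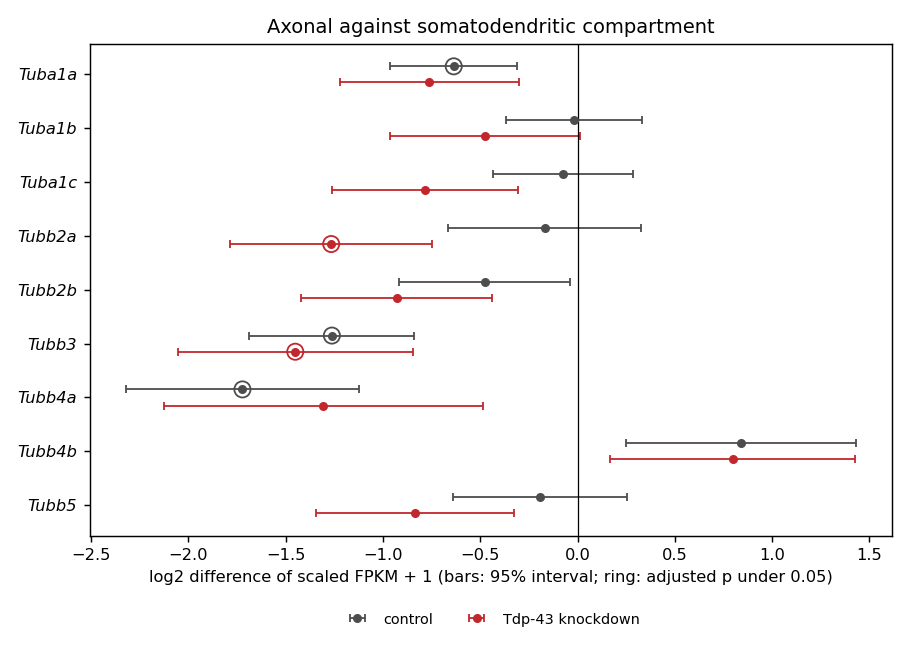
Log2 difference of scaled FPKM + 1, axonal against somatodendritic compartment, for each tubulin gene in control (dark; 4 against 4 libraries) and Tdp-43 knockdown motoneurons (red; 6 against 6); bars are 95% intervals and rings mark a limma adjusted p under 0.05. Tuba1a, Tubb3 and Tubb4a are called lower in control axons, Tubb2a and Tubb3 in knockdown axons, and Tubb4b lies above 0 in both.

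Expressed as a share of the family in the same library, which no scaling between libraries can alter, the isotype make-up of control axons also differed from that of the cell bodies. Tubb3 made up 25.6% ± 1.20 (SD, n = 4) of beta tubulin FPKM in the somatodendritic and 14.3% ± 2.12 in the axonal control libraries, without overlap. For Tubb4a these shares were 2.49% ± 0.264 and 1.02% ± 0.438, and for Tubb4b 1.93% ± 0.274 and 4.74% ± 1.18, each without overlap. Tubb5 took 35.0% ± 1.69 and 41.8% ± 9.18, with overlap. Within the alpha family the share of Tuba1a was 63.6% ± 3.40 in axons against 72.6% ± 0.900, and Tuba1b (23.6% ± 2.50 against 17.5% ± 0.761) and Tuba1c (12.8% ± 0.946 against 9.88% ± 0.203) held larger shares there, all without overlap. Shares are a description and were not tested, and within a family they are not independent of each other.

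**Figure D4:**
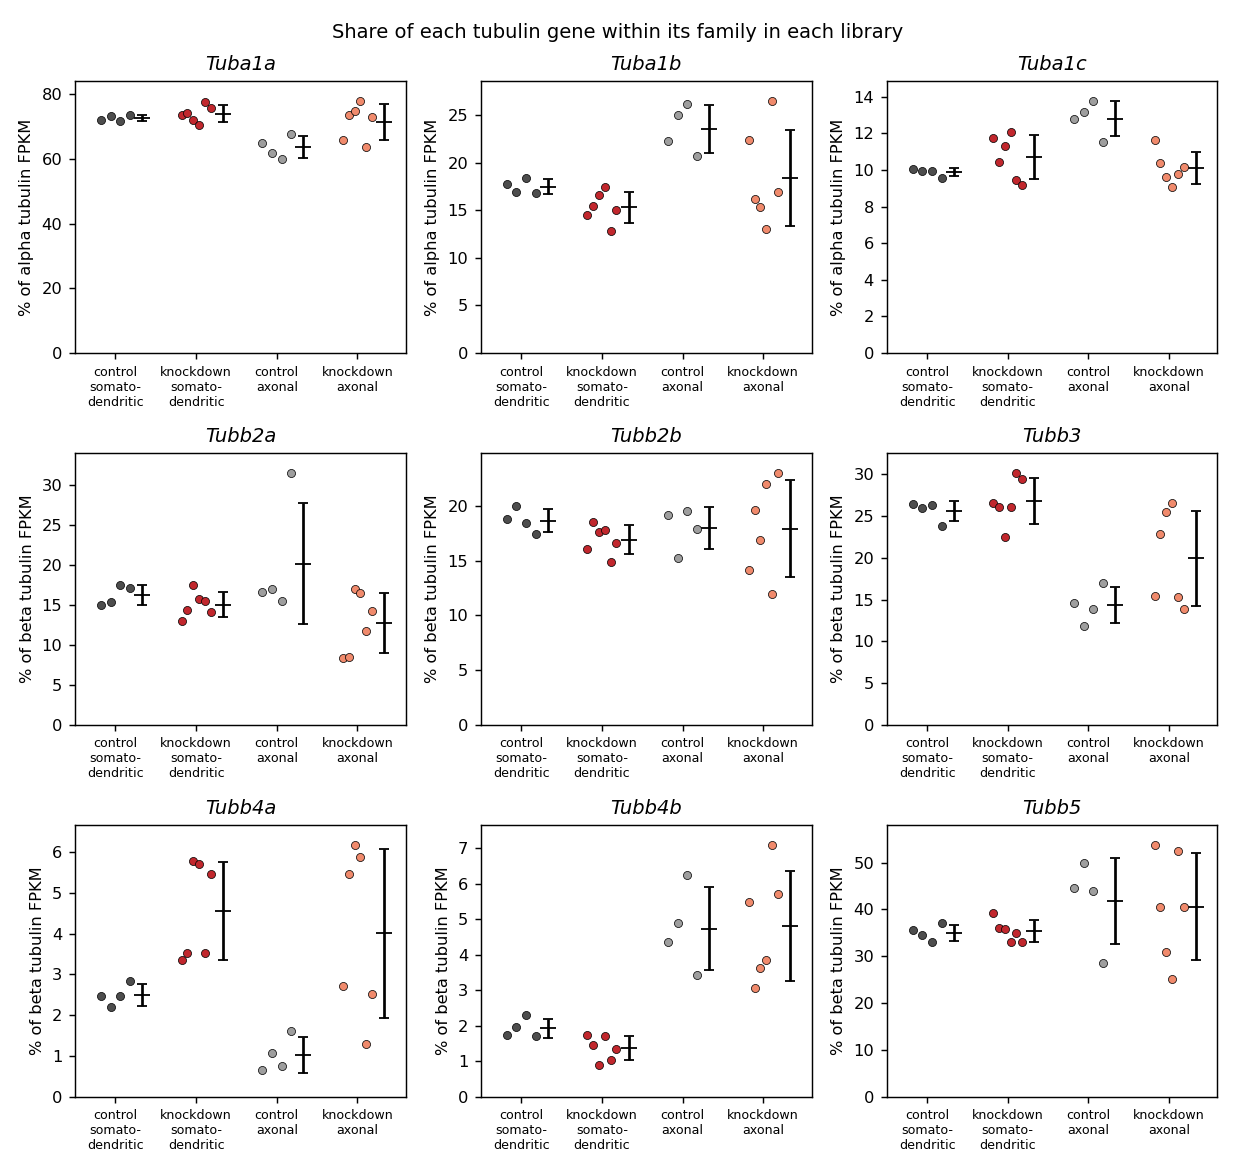
Share of each gene in the summed FPKM of the alpha or beta members of the same library (points, ordered by replicate number; horizontal mark and bar, mean ± SD; each panel has its own axis from 0). In control axons Tubb3, Tubb4a and Tuba1a hold smaller shares and Tubb4b, Tuba1b and Tuba1c larger ones than in control cell bodies, and the Tubb4a share is above every control in all 6 knockdown somatodendritic libraries.

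In the somatodendritic compartment none of the 9 members passed the adjusted test after Tdp-43 knockdown, although Tubb4a had a higher value in every knockdown library than in any control. Over 13762 genes, 0.974% were called with limma. Without an adjustment of p, Tubb4a was higher (1 of 9 members, beside 4.59% of all genes), and Tuba1b, Tubb2a, Tubb2b and Tubb4b were lower (4 of 9, beside 9.22%). The median log2 change of the members was -0.33, against -0.13 over all genes, of which 59.3% had a change below 0. Under the alternatives 0 or 1 member was called. On FPKM as deposited the median over all genes was 0.04, a shift of 0.17.

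Tubb4a was at 98.2, 111, 114, 112, 122 and 147 FPKM in the knockdown somatodendritic libraries and at 64.2, 62.1, 69.1 and 75.6 FPKM in the controls. All 6 knockdown libraries lay above all 4 controls, as deposited and after scaling, as did 1.90% of all genes after scaling. The pan-neuronal marker sums of these 6 libraries, at 2692 to 3270 FPKM, were above the 2138 to 2348 FPKM of the controls as deposited. After scaling 5 of the 10 pan-neuronal markers had a change above 0 and 5 below (median 0.06), and none was called. At an unadjusted p 2 were higher (beside 4.59% of all genes) and 1 lower (beside 9.22%). Their part in the Tubb4a values was not tested. The level was 173% ± 24.1 (SD, n = 6) of the control as deposited. After scaling the log2 change was 0.57 (SE 0.153; limma adjusted p = 0.105), with changes of 0.46 to 0.78 over the alternatives. It was called on FPKM as deposited alone (0.78, limma adjusted p = 0.0195), and without knockdown replicates 3 and 4 it was 0.59 (limma adjusted p = 0.178). Within the beta family its share was 4.56% ± 1.20 (SD, n = 6) against 2.49% ± 0.264 (SD, n = 4), again with all 6 libraries above the controls. Almost none of its 50-base stretches occur in another gene, and 33.4 to 125 implied fragments lie behind each knockdown value.

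Tuba1b had the lowest limma p among the members that were lower. Its levels were 340, 326, 224, 239, 277 and 291 FPKM against 351, 337, 383 and 351 FPKM, of which 5 of 6 lay below every control as deposited and all 6 after scaling, as did 3.60% of all genes. The log2 change was -0.56 (SE 0.138; limma adjusted p = 0.0817). It was called after quantile normalization (limma adjusted p = 0.0369) and among genes averaging 10 FPKM or more (limma adjusted p = 0.0480). Without knockdown replicates 3 and 4, the lowest for this gene, the change was -0.41 (limma adjusted p = 0.166). Tubb4b was at 51.1, 45.3, 17.9, 33.4, 35.6 and 36.1 FPKM against 44.7 to 64.2 FPKM, with a log2 change of -0.78 (SE 0.258; limma adjusted p = 0.189), and the groups did not overlap after scaling. In knockdown replicate 6 its value rests on 3.39 implied fragments.

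Tubb3, Tubb5, Tuba1a and Tuba1c did not pass the test even without an adjustment of p. Tubb3 was at 443 to 1039 FPKM (median 787) against 637 to 736 FPKM, Tubb5 at 650 to 1205 FPKM (median 1010) against 920 to 989 FPKM, and Tuba1a at 962 to 1736 FPKM (median 1519) against 1422 to 1537 FPKM. As deposited, the knockdown libraries lay on both sides of the controls for these 3 genes. After scaling no knockdown library lay above the highest control for Tuba1a (highest 1546 against 1617 FPKM) or Tubb5 (1056 against 1083 FPKM). For Tubb3 the highest scaled knockdown value was 905 against 813 FPKM. Knockdown replicates 3 and 4 held the lowest sums of the 9 members, at 3325 and 3332 FPKM, against 4630 to 5607 FPKM in the other 4. The log2 changes were -0.20 for Tubb3, -0.25 for Tubb5, -0.33 for Tuba1a and -0.25 for Tuba1c (limma adjusted p = 0.438 to 0.729), and -0.38 for Tubb2a and -0.40 for Tubb2b (limma adjusted p = 0.267 and 0.278). Without knockdown replicates 3 and 4 they were 0.09 for Tubb3, -0.01 for Tubb5, -0.08 for Tuba1a and -0.09 for Tuba1c, so that these values rest on 2 libraries. On FPKM as deposited the change of Tubb3 was 0.01. The 10 dividing cell markers all had a change below 0 (beside 59.3% of all genes), with a median of -0.84. Of them 2 were lower at an unadjusted limma p under 0.05 (beside 9.22%). Of 13 glia and progenitor markers 8 had a change below 0, beside 59.3% of all genes, with a median of -0.46, and 3 were lower (beside 9.22%) and 1 higher (beside 4.59%) at an unadjusted p. The part of these markers in the lower isotypes was not tested.

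**Figure D5:**
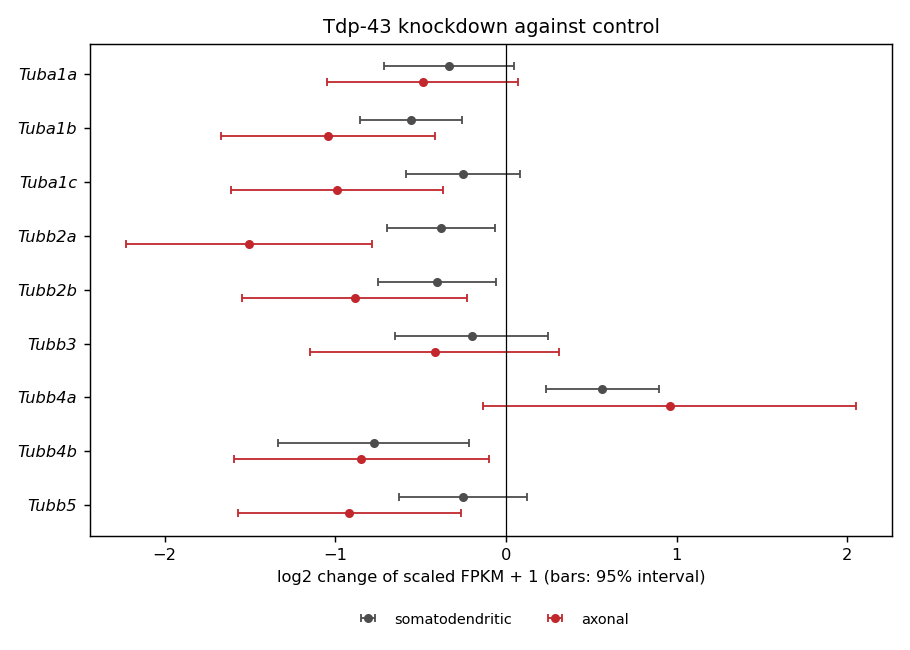
Log2 change of scaled FPKM + 1 in Tdp-43 knockdown against control motoneurons for each tubulin gene, in the somatodendritic (dark) and the axonal compartment (red); bars are 95% intervals, and each comparison has 4 control and 6 knockdown libraries. Tubb4a is the only gene above 0 in both compartments after scaling (Tubb3 is at 0.01 and 0.10 on FPKM as deposited), and no gene passed a limma adjusted p of 0.05.

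In the axonal compartment 8 of the 9 members had a lower value and Tubb4a a higher one after knockdown, again with none past the adjusted test. Over 13958 genes, 0.401% were called with limma. Without an adjustment of p, 6 members were lower, beside 6.46% of all genes, and none was higher, beside 2.14%. These 6 were Tuba1b, Tuba1c, Tubb2a, Tubb2b, Tubb4b and Tubb5. The median change of the members was -0.89, against -0.17 over all genes, of which 58.7% had a change below 0. After scaling all 6 knockdown libraries lay below all 4 controls for Tuba1a, Tuba1b, Tuba1c, Tubb2a and Tubb2b, which is 5 of 9 members beside 2.02% of all genes. No member had such a separation in FPKM as deposited. The median change over all genes was 0.23 as deposited, a shift of 0.40, and the changes of Tuba1a (0.03) and Tubb3 (0.10) then had the other sign.

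Among the 8 members with a lower value Tubb2a had the most negative scaled change. Its levels were 119, 82.8, 286, 188, 109 and 115 FPKM in knockdown axons against 239, 215, 247 and 433 FPKM in control axons. Knockdown replicate 3 lay among the controls, and control replicate 4 lay far above the other controls. The log2 change was -1.50 (SE 0.340; limma adjusted p = 0.0851), and it was between -1.64 and -0.98 over the alternatives that left out at most 1 library or changed the processing. Without control axonal replicate 4 it was -1.31 (limma adjusted p = 0.223). Without knockdown replicate 1, in which Tardbp as deposited was above every control, it was -1.42 (limma adjusted p = 0.133). Without knockdown replicates 3 and 4 it was -1.82 and was called (limma adjusted p = 0.0222), as it was among genes averaging 10 FPKM or more (limma adjusted p = 0.0472) and with all 20 libraries in 1 fit (limma adjusted p = 0.000833). The Tubb2a share of beta tubulin was 12.7% ± 3.80 (SD, n = 6) against 20.2% ± 7.58 (SD, n = 4), or 15.5% to 17.03% without control replicate 4, and knockdown replicates 3 and 4 lay within that narrower range.

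For the other isotypes the axonal values were as follows, none of them called. Tuba1b was at 295, 140, 199, 120, 197 and 120 FPKM against 257, 260, 249 and 210 FPKM, with a log2 change of -1.04 (SE 0.296; limma adjusted p = 0.239). Tuba1c was at 72.1 to 154 FPKM (median 86.6) against 117 to 148 FPKM, with a change of -0.99 (SE 0.292; limma adjusted p = 0.260). For Tubb5 (285 to 761 FPKM, median 441, against 393 to 701 FPKM) the change was -0.92 (SE 0.307; limma adjusted p = 0.339), and for Tubb2b (111 to 285 FPKM, median 196, against 193 to 311 FPKM) it was -0.89 (SE 0.311; limma adjusted p = 0.385). Tubb4b was at 29.9 to 77.6 FPKM (median 53.9) against 47.4 to 99.6 FPKM, with a change of -0.85 (SE 0.351; limma adjusted p = 0.501). On FPKM as deposited the changes were -0.52 for Tuba1b, -0.47 for Tuba1c, -0.40 for Tubb5, -0.36 for Tubb2b and -0.33 for Tubb4b. The scaled changes of Tuba1a (-0.49, limma adjusted p = 0.638) and Tubb3 (-0.42, limma adjusted p = 0.760) were smaller. With all 20 libraries in 1 fit, in which the spread is shared between compartments and 236 genes were called, Tuba1b, Tuba1c, Tubb2a, Tubb2b and Tubb5 were called lower (limma adjusted p = 0.000833 to 0.0443).

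Tubb4a was the isotype with a higher value in knockdown axons as well, at 38.4, 53.0, 104, 66.8, 11.9 and 20.3 FPKM against 9.31, 13.6, 11.98 and 22.3 FPKM. In 4 of the 6 libraries it was above every control, and replicates 5 and 6 lay within the control range. The log2 change was 0.96 (95% interval -0.13 to 2.05; limma adjusted p = 0.638). The highest values came from knockdown replicates 3 and 4, whose pan-neuronal marker sums were also the highest, and without them the change was 0.49 (limma adjusted p = 0.773). The value in replicate 5 rests on 1.99 implied fragments. As a share of beta tubulin Tubb4a held 4.003% ± 2.08 (SD, n = 6) against 1.02% ± 0.438 (SD, n = 4), with replicate 5 at 1.29% within the control range. The Tubb3 share was 19.9% ± 5.70 against 14.3% ± 2.12, and replicates 2, 3 and 4, at 22.9%, 25.5% and 26.6%, were above all controls. Over this comparison 8 of the 10 pan-neuronal markers had a change above 0 (median 0.37). All 10 dividing cell markers (median -0.76, 2 lower at an unadjusted p) had one below 0. So did 10 of 13 glia and progenitor markers (median -0.74, 2 lower). Over all genes 58.7% had a change below 0, and 6.46% were lower at an unadjusted p. The part of these markers in the tubulin values was not tested.

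Whether knockdown changed an isotype differently in the 2 compartments was tested as an interaction over all 20 libraries and 14062 genes, of which 0.0711% were called. No member was called. At an unadjusted p under 0.05, as for 2.86% of all genes in this direction, the change was more negative in axons for Tubb2a by -1.15 (SE 0.347; limma adjusted p = 0.616) and for Tuba1c by -0.76 (SE 0.291; limma adjusted p = 0.839). Without knockdown replicates 3 and 4 the value for Tubb2a was -1.58 (limma adjusted p = 0.0671). For Tubb4a the difference was 0.38 (95% interval -0.74 to 1.50) and for Tubb3 -0.24 (-1.05 to 0.57). The signs were not stable, since the Tubb4a value was -0.10 without knockdown replicates 3 and 4 and the Tubb3 value 0.09 on FPKM as deposited.

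Within the knockdown libraries, the axonal compartment held lower levels of Tubb2a and Tubb3, which were the 2 members called among 14021 genes, of which 0.421% were called lower and 1.28% in either direction. Without an adjustment of p, 7 members were lower, beside 8.73% of all genes, and Tubb4b was higher, beside 7.86%. Tubb2a was 37.5% of its somatodendritic FPKM as deposited and Tubb3 32.5%, each without overlap of the 6 axonal (82.8 to 286 FPKM and 113 to 431 FPKM) and the 6 somatodendritic libraries (309 to 532 FPKM and 443 to 1039 FPKM), while 1.37% of all genes lay lower without overlap after scaling. The log2 differences were -1.27 (SE 0.246; limma adjusted p = 0.0230) and -1.45 (SE 0.285; limma adjusted p = 0.0252). Without libraries under a relative depth of 0.5 the differences were -1.12 and -1.39 and neither was called (limma adjusted p = 0.113 and 0.109), and without knockdown replicates 3 and 4 the differences were -1.73 and -2.06 (limma adjusted p = 0.00446 and 0.00314). Leaving out 1 library ended the Tubb2a call in 7 of 12 fits (axonal replicates 1 and 6 and somatodendritic replicates 1, 2, 3, 5 and 6) and the Tubb3 call in 6 (the same without somatodendritic replicate 3), with limma adjusted p of 0.0501 to 0.0714 in those fits. Over all 12 the differences were -1.40 to -1.18 for Tubb2a and -1.58 to -1.30 for Tubb3. Tuba1a (-0.76), Tubb2b (-0.93), Tubb4a (-1.31), Tuba1c (-0.78) and Tubb5 (-0.83) had limma adjusted p between 0.0581 and 0.101, and Tubb4b again had a higher value in axons (0.80, limma adjusted p = 0.188). Its share of beta tubulin was 4.81% ± 1.54 in axons against 1.36% ± 0.340 (SD, n = 6), without overlap. All 10 pan-neuronal markers had a lower value in axons (median -1.16, 8 at an unadjusted p and 1 called), and all 10 dividing cell markers a higher one (median 1.33, 6 at an unadjusted p). Of 8 fibroblast markers 7 had a higher value in axons and 1 a lower one (median 1.76, 5 higher and 1 lower at an unadjusted p). Fn1 (3.47, limma adjusted p = 0.00725) and Col1a1 (3.41, limma adjusted p = 0.0185) were called higher. Of 13 glia and progenitor markers 11 had a lower value in axons (median -0.78, 3 at an unadjusted p), and Vim (1.88, limma adjusted p = 0.0320) was called higher. Their part in the tubulin values was not tested.

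Of the 11 other tubulin genes 5 were tested in the control compartments, and 2 were called, in opposite directions, beside 3.93% of all genes called higher and 2.97% called lower. Tubb6, a beta isotype found mostly outside the nervous system, was at 98.4, 102, 94.7 and 10.4 FPKM in control axonal libraries and at 7.40, 5.81, 3.95 and 15.6 FPKM in control somatodendritic ones. Its difference was 3.28 (SE 0.671; limma adjusted p = 0.0172), and control axonal replicate 4 was the library that lay among the somatodendritic values. Tuba4a, an alpha isotype whose protein lacks the terminal tyrosine of other alpha tubulins, was at 2.55 to 3.69 FPKM in axons against 19.6 to 23.2 FPKM, with a difference of -1.998 (SE 0.287; limma adjusted p = 0.00396). Only 1.32 to 2.25 implied fragments lie behind each axonal Tuba4a value in controls. After knockdown Tuba4a in the somatodendritic compartment was at 6.42, 15.8, 15.1, 7.75, 15.8 and 4.69 FPKM, each below every control (as were 3.60% of all genes after scaling), with a log2 change of -1.26 (SE 0.336; limma adjusted p = 0.102).

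Genes that act on tubulin were read from lists of folding factors, modifying enzymes and nucleation or severing factors. None of the 21 folding, 17 modification and 16 nucleation or severing genes tested passed the adjusted limma test in either knockdown comparison. Among 17 modification genes tested, 3 were higher in the somatodendritic compartment at an unadjusted p (beside 4.59% of all genes), 9 had a change above 0 and the median change was 0.32, against -0.13 over all genes. Among 21 folding genes, which include the prefoldin and CCT chaperonin subunits and the tubulin cofactors, 6 were lower (beside 9.22%), 14 had a change below 0 (beside 59.3%) and the median was -0.43. In the axonal compartment the medians were 0.40 (1 of 17 higher, beside 2.14%) and -0.53 (3 of 21 lower, beside 6.46%), against -0.17 over all genes. Atat1, which acetylates alpha tubulin inside the microtubule, was at 103 ± 18.7 FPKM (SD, n = 4) in control and 199 ± 40.3 FPKM (SD, n = 6) in knockdown somatodendritic libraries, with a log2 change of 0.72 (SE 0.191; limma adjusted p = 0.102). In controls Atat1 (-1.34, limma adjusted p = 0.0236) and Ttl (-1.36, limma adjusted p = 0.0397), which re-attaches the terminal tyrosine of alpha tubulin, were lower in axons, the only 2 of 16 modification genes tested that were called (beside 2.97% of all genes), and none of the 21 folding genes was.

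The genes whose levels resembled the isotypes most over the 20 libraries were named by the highest Pearson correlation of scaled log2 values among 5744 genes averaging 10 FPKM or more. For Tubb3 these were Stmn2, a neuronal regulator of microtubule stability (r = 0.97), Vsnl1 (r = 0.94) and Tspan7 (r = 0.93). For Tubb4a they were Atat1 (r = 0.96), the synaptic vesicle gene Vamp2 (r = 0.93) and Clstn1 (r = 0.92). For Tubb2a they were Nefl, the light neurofilament subunit (r = 0.91), the hexokinase gene Hk1 (r = 0.90) and the pseudogene Gm12895 (r = 0.88). These values are a description, since the libraries fall into 2 compartments and differ in depth.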

How the data were processed

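RNA-seq libraries of 4 control and 6 Tdp-43 knockdown samples per compartment were analysed from their deposited gene tables. The authors mapped the reads (STAR by the file names, version not given in the sources used here) to GRCm38 and computed FPKM values with Cufflinks 2.2.1 for each library, with FastQC 0.10.1 among the tools in the submitters' processing notes. The RNA was amplified by PCR before sequencing, so that intervals cover counting error only. For each comparison the FPKM values were scaled by the median of ratios to the geometric mean over genes at 1 FPKM or more in every library, genes with a mean under 1 FPKM were left out, and log2(FPKM + 1) was fitted with limma 3.58.1 in R 4.3.3 (empirical Bayes with trend). Fold changes on this scale understate those of low genes. P-values were adjusted by Benjamini-Hochberg over all genes tested, a gene was called at an adjusted p under 0.05, and the test was checked on simulated data, where it missed most of the changes at that threshold. Tardbp was tested by exact permutation. All 9 members, Tardbp, Tubb6 and Tuba4a could be named in every comparison. From each other list at most 4 called genes, those with the largest change, could be named, or the 2 with the highest mean where none was called. For Tubb3, Tubb2a and Tubb4a the 3 genes of highest correlation were named. The members and lists were chosen with earlier results of these data known. As alternatives, unscaled FPKM and quantile normalization, a pseudocount of 0.1 or 5, a minimum mean of 0 or 10 FPKM, a joint fit of the 20 libraries, a block for the replicate number, and the omission of each library were tried. Leaving out libraries under a relative depth of 0.5, and knockdown replicates 3 and 4, was chosen after seeing the data. Sequences came from GENCODE M21. The 3′ ends of the coding sequences are not reported here.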

Additional observations from a re-analysis of the deposited data

Results flagged for a closer look

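In control axonal replicate 4 Tubb2a was at 433 FPKM, far above the other 3 libraries of the group, which held 215 to 247 FPKM. The Tubb2a share of beta tubulin in the same library was 31.5%, against 15.5% to 17.03% in the others. Tardbp was at 19.0 FPKM in control somatodendritic replicate 2, below the 29.6 to 30.8 FPKM of the other 3 libraries. These are 3 values from 2 libraries, of which the Tubb2a level and share rest on the same measurement, among 76 groups of values examined, and chance gives about 1 in 20 groups.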

How the results depend on the processing

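Without a single library, the genes called ranged from 58 to 198 for somatodendritic and from 37 to 70 for axonal knockdown, from 364 to 1559 between control compartments (1559 without control axonal replicate 4), from 24 to 439 between knockdown compartments, and from 10 to 15 for the difference of the knockdown changes. The members called ranged from 2 to 4 between control and 0 to 4 between knockdown compartments. Leaving out 1 library moved the Tuba1b difference between control compartments across 0 (-0.0546 to 0.0476), likewise the Tubb4b difference of knockdown changes (-0.28 to 0.13), and the axonal Tardbp level ranged from 36.5% to 62.5%.

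On FPKM as deposited 233 genes and 1 member (Tubb4a) were called for somatodendritic knockdown and 2055 genes and 7 members between control compartments. The knockdown change of Tubb3 was then 0.0120 in cell bodies and 0.10 in axons, that of axonal Tuba1a was 0.0345, and the differences of knockdown changes were 0.15 for Tuba1a, 0.0924 for Tubb3 and 0.24 for Tubb4b. Quantile normalization called 1 member (Tuba1b) for somatodendritic knockdown and 389 genes and 6 members between knockdown compartments. A pseudocount of 5 called 212 genes for somatodendritic knockdown, and one of 0.1 called 30 for axonal knockdown and 74 between knockdown compartments. Without a filter 52 genes and 1 member were called between knockdown compartments. With a mean of at least 10 FPKM, 1 member was called for knockdown in each compartment (Tuba1b and Tubb2a), 4 between knockdown compartments, and 5 genes for the difference of knockdown changes. All 20 libraries in 1 fit gave 61 genes for somatodendritic and 236 genes and 5 members for axonal knockdown. Without libraries under a relative depth of 0.5, 76 genes and 0 members were called between knockdown compartments, and the Tubb4b difference of knockdown changes was 0.0359. Without knockdown replicates 3 and 4, 87 genes were called for somatodendritic knockdown, 1 member (Tubb2a) for axonal knockdown and 332 genes and 4 members between knockdown compartments. The change of Tubb3 was then 0.0856 in the somatodendritic compartment and the Tubb4a difference of knockdown changes -0.10. Scaled, the axonal Tardbp level was 35.1% of control (exact permutation p = 0.0190). The cause of these shifts was not tested.

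Libraries with the same replicate number did not deviate together (r = -0.04 to 0.07, own number the best match in 3 of 18). With the replicate block 18 genes were called for somatodendritic and 35 for axonal knockdown, 430 between control and 13 between knockdown compartments. The block ended the call of Tuba1a between control compartments (limma adjusted p = 0.106) and left 0 members called between knockdown compartments. No total count of reads was used here, and low values such as axonal Tubb4a rest on few fragments.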
